A study of Mus musculus with 6 samples.

Results

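A set of 51 genes of the 26332 in the count table was close to silent in wild-type thymocytes and clearly transcribed in thymocytes with a knockout of Tcf7, which encodes TCF-1, a transcription factor of T cells. The genes were chosen on their measured level in CPM, the count of a gene per 1000000 counts of its library. A gene was taken when it stood under 0.5 CPM in each wild-type library and at 3 CPM or more in both knockout libraries. These limits held for 57 genes, 0.216% of the table, and 6 of them, Cd22, Cd79a, Il6ra, Lyl1, S100a4 and S1pr1, were set aside by symbol because the selection leaves out these genes or their families. Of the 51 genes that remained, 50 carry a symbol, all 50 are protein coding, and 1, Entrez gene 76924, has no symbol in the RefSeq table used. With the limits exchanged (under 0.5 CPM in both knockout libraries, at 3 CPM or more in each wild-type library), 68 genes qualified. Because the contrast of knockout and wild type chose the members, their values in it are a description and no test is given for them.

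RNA was sequenced from double negative 3 (DN3) thymocytes of C57BL/6 mice: 2 libraries from Tcf7 knockout mice (KO 1, male, and KO 2, female) and 4 from wild-type mice (WT 1, WT 2 and WT 3, female, and WT 4, male), each from an individual mouse. Both genotypes were sorted from thymus as CD25+ cells that lacked CD44, CD3, TCRbeta, CD8, NK1.1 and CD1d tetramer binding. The labels give neither the design of the knockout allele, nor whether other cells of the mouse lack TCF-1, nor the age of the mice.

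TCF-1 is a high mobility group box protein that binds a short DNA motif, works with beta-catenin or with Groucho corepressors, and is needed for normal T-cell specification in the thymus. DN3 cells carry CD25, rearrange the T-cell receptor beta locus and stop there until a pre-T-cell receptor is made. Genes best known from neurons, muscle or fat are not part of the usual programme of these cells. Genes known from epithelial junctions are in part transcribed in them. In the WT libraries Cdh1 had 79.5 to 92.8 CPM and Epcam 148 to 159 CPM, while Dsc1 and Pkp2 had no count.

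Library totals were 19589938 and 13673860 counts in KO 1 and KO 2, against 23711513 to 41666797 in WT, so 1 count was worth 0.051 and 0.0731 CPM in KO 1 and KO 2 and 0.024 to 0.0422 CPM in WT. Tcf7 itself stood at 1130 and 1001 CPM in KO 1 and KO 2 and at 2312, 2291, 2283 and 2113 CPM in WT 1 to WT 4; counts over the whole gene do not show which part was deleted. Il2ra, the gene of CD25 on which the cells were sorted, was abundant in every library. It was lower in KO, with 1128 and 694 CPM in KO and 1764 to 2139 CPM in WT. Ptcra, another DN3 gene, had 164 and 118 CPM in KO 1 and KO 2 and 259 to 282 CPM in WT. Rag1 had 520 and 1914 CPM in KO 1 and KO 2 and 1490 to 1913 CPM in WT. Notch1 was not lower, at 2966 and 2179 CPM in KO and 2161 to 2495 CPM in WT. The KO libraries differed from each other more than any WT pair did, with a chi-square per degree of freedom of 104 between KO 1 and KO 2 and of 3.37 to 23.1 among WT pairs, and the WT pairs with WT 4 were the highest of these at 15.9 to 23.1. B-cell markers summed to 889 and 1569 CPM in KO 1 and KO 2, against 328 to 373 CPM in WT. Most of the KO 1 sum was Ighm at 521 CPM and Blk at 268 CPM. Both had counts in WT, Ighm at 187 to 222 CPM and Blk at 19.4 to 21.5 CPM. Cd79b had 10.8 CPM in KO 1, 61.3 CPM in KO 2 and 42.7 to 51.3 CPM in WT. Of the defining B-cell genes, Ms4a1 and Pax5 had no count in KO 1 or in any WT library and stood at 35.3 and 7.39 CPM in KO 2. Markers of double positive thymocytes summed to 228 and 1764 CPM in KO 1 and KO 2 and to 7.23 to 20.4 CPM in WT. Among them, Cd4 had no count in KO 1, 12.6 CPM in KO 2 and 0.745 to 2.63 CPM in WT. In bulk samples, more cells of another type and more RNA per cell cannot be told apart, and the part of these marker differences in the values below was not tested.

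Summed over the 51 members, the level was 1299 CPM in KO 1 and 922 CPM in KO 2, against 5.99 to 7.3 CPM in the WT libraries. The median member stood at 8.68 CPM in KO 1 and 9.58 CPM in KO 2, against a median WT mean of 0.105 CPM. In WT, 6 members had no count in any library, 4 had 1 to 3 counts in all 4 libraries together, and the other 41 had more, up to 47 counts. A total of 27 members had at least 1 count in every WT library. Each member had at least 43 counts in each KO library. All 51 members passed the filter on low counts that was used for tests on other genes.

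Per length, measured as RPKM (CPM per kilobase of the deposited gene length), the members ranged from low to high among the 14941 genes detected in KO. By mean KO RPKM their percentiles ran from 17.7 for Map1b to 96.7 for Pdlim4, with a median of 37.8. Ratios of KO to WT below are pooled, that is, the summed KO count over the summed KO totals divided by the same for WT. Their 95% intervals are exact conditional intervals that cover counting error only, and against WT groups without any count the ratio is a lower bound computed with 3 counts over the whole WT group.

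**Figure D1:**
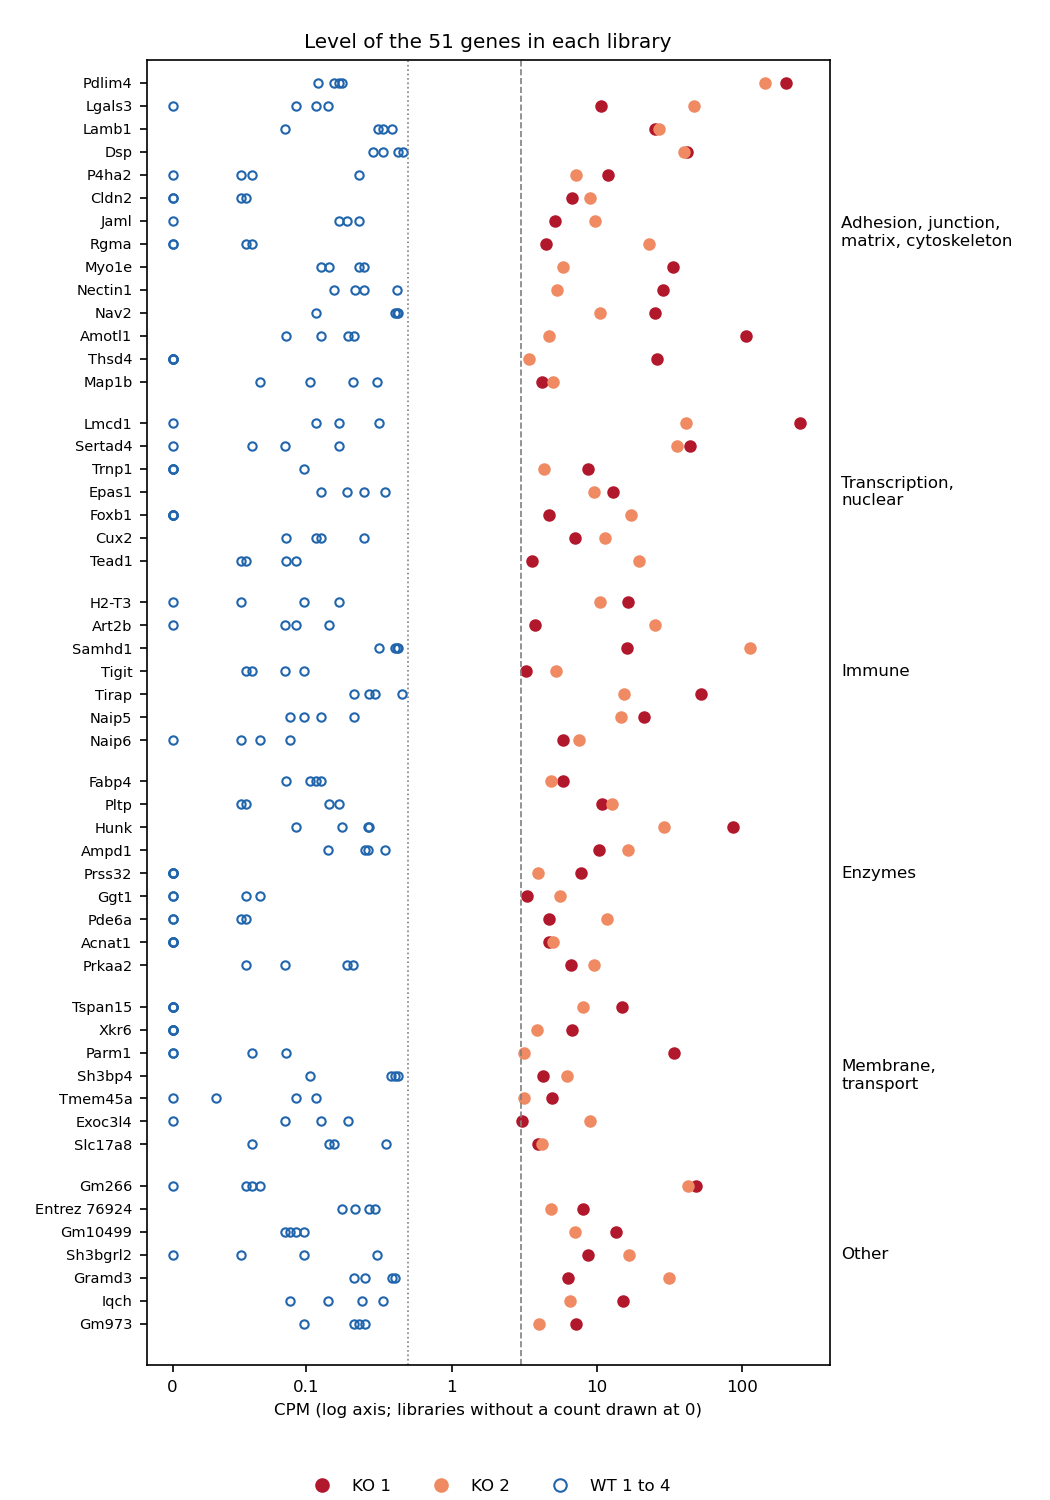
CPM of each of the 51 members in KO 1 and KO 2 (filled) and WT 1 to WT 4 (open), grouped by role and, within a role, ordered by the lower KO RPKM. The dotted line marks the WT limit of 0.5 CPM and the dashed line the KO limit of 3 CPM. The selection leaves the space between the limits empty in each row, while within KO the levels run up to 251 CPM for Lmcd1 in KO 1 and 145 CPM for Pdlim4 in KO 2.

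The largest group held 14 members of adhesion, cell junctions, matrix and cytoskeleton, which summed to 529 and 342 CPM in KO 1 and KO 2 and to 1.8 to 2.63 CPM in WT. Pdlim4, which encodes a PDZ and LIM domain protein of actin stress fibres, led it and the whole set per length, with 169 RPKM in KO 1 and 123 RPKM in KO 2. Its level was 200 and 145 CPM in KO 1 and KO 2, against 0.12, 0.169, 0.154 and 0.177 CPM in WT 1 to WT 4. The WT libraries lay close together (0.155 ± 0.0252 CPM, SD, n = 4), and the pooled KO to WT ratio was 1178 (95% interval 745 to 1989). Its levels in KO 1 and KO 2 differed by 1.37-fold (1.3 to 1.45, counting error only), less than those of many members described below.

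Dsp, which encodes desmoplakin, the desmosome protein that anchors intermediate filaments, had 42 and 39.6 CPM in KO 1 and KO 2 and 0.288, 0.337, 0.425 and 0.461 CPM in WT 1 to WT 4. It is the member nearest to the WT limit, yet its pooled ratio was 111 (82.5 to 154). Lamb1, a laminin beta chain of basement membranes, had 25 and 26.8 CPM in KO and 0.312, 0.337, 0.386 and 0.0709 CPM in WT. Both genes had nearly the same level in KO 1 and KO 2.

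Lgals3, the gene of the galactose-binding lectin galectin-3, had 10.7 and 46.9 CPM in KO 1 and KO 2 and 0, 0.0843, 0.116 and 0.142 CPM in WT 1 to WT 4. P4ha2, a catalytic subunit of collagen prolyl 4-hydroxylase, had 12 and 7.17 CPM in KO and 0, 0.0422, 0.232 and 0.0355 CPM in WT. P4ha2 lies beside Pdlim4 in the genome. The matrix gene Thsd4 had 25.9 and 3.44 CPM in KO and no count in WT, a ratio of at least 663.

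Cldn2, which encodes a pore-forming claudin of epithelial tight junctions, had 6.74 and 8.92 CPM in KO and 2 counts in all WT libraries, a ratio of 456 (125 to 3787). Rgma, a membrane-anchored guidance molecule that also acts as a co-receptor for bone morphogenetic proteins, had 4.44 and 23 CPM in KO and 2 counts in WT, a ratio of 720 (198 to 5967). The width of both intervals comes from the few WT counts. The remaining members of the group were Jaml and Nectin1, which encode adhesion proteins of the immunoglobulin superfamily, Amotl1, an angiomotin family member, the class I myosin gene Myo1e, and the genes Map1b and Nav2 of microtubule-associated proteins known from neurons. Their KO levels ran from 4.19 CPM for Map1b to 106 CPM for Amotl1, both in KO 1.

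A group of 7 members encodes transcription factors and other nuclear proteins, with summed levels of 332 and 139 CPM in KO 1 and KO 2 and 0.38 to 0.922 CPM in WT. Lmcd1, a LIM domain cofactor known to restrain GATA factors, had 251 and 41.4 CPM in KO 1 and KO 2, against 0.168, 0, 0.116 and 0.319 CPM in WT 1 to WT 4. It was the highest member by CPM in KO 1 and 6.06-fold lower in KO 2. Sertad4, a SERTA domain gene, had 43.9 and 35.8 CPM in KO and 0.168, 0.0422, 0 and 0.0709 CPM in WT.

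Foxb1, a forkhead factor known from the developing brain, had 4.65 and 17.3 CPM in KO 1 and KO 2 and no count in any WT library, a ratio of at least 393. Tead1, a DNA-binding partner of the YAP and TAZ coactivators, had 3.57 and 19.5 CPM in KO and 0.072, 0.0843, 0.0386 and 0.0355 CPM in WT. Both were higher in KO 2 than in KO 1. Epas1, a hypoxia-inducible factor alpha subunit, the homeobox gene Cux2 and Trnp1, a nuclear protein gene known from neural progenitors, completed the group at 4.31 to 13 CPM in the KO libraries.

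Members known from immune cells numbered 7, with 118 and 191 CPM in sum in KO 1 and KO 2 and 0.888 to 1.34 CPM in WT. H2-T3 encodes the thymus leukaemia antigen, a nonclassical class I molecule. It had 16.3 and 10.6 CPM in KO 1 and KO 2, against 0.096, 0.169, 0 and 0.0355 CPM in WT 1 to WT 4. Art2b, which encodes an ADP-ribosyltransferase anchored on the T-cell surface, had 3.78 and 25 CPM in KO and 0.144, 0.0843, 0 and 0.0709 CPM in WT.

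Samhd1, the gene of an enzyme that degrades deoxynucleotides, had 16.2 and 113 CPM in KO 1 and KO 2 and 0.408, 0.422, 0.425 and 0.319 CPM in WT 1 to WT 4. Tirap, an adaptor of Toll-like receptors, had 51.9 and 15.5 CPM in KO and 0.456, 0.295, 0.27 and 0.213 CPM in WT. The KO libraries thus differ in opposite directions in these 2 genes. Tigit, an inhibitory receptor of T cells and NK cells, was among the lowest members at 3.27 and 5.27 CPM in KO and 0.0386 to 0.096 CPM in WT. Naip5 and Naip6, which encode cytosolic sensors of bacterial flagellin, lie side by side and are described with their neighbours below.

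Enzymes and lipid carriers made up 9 members, at 141 and 98.8 CPM in sum in KO 1 and KO 2 and 0.567 to 0.984 CPM in WT. The kinase gene Hunk had 86.7 and 29.1 CPM in KO 1 and KO 2 and 0.264, 0.0843, 0.27 and 0.177 CPM in WT 1 to WT 4. Ampd1, the AMP deaminase of skeletal muscle, had 10.3 and 16.4 CPM in KO and 0.264, 0.253, 0.348 and 0.142 CPM in WT. Hunk was higher in KO 1 and Ampd1 in KO 2.

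Pltp, a phospholipid transfer protein gene, had 10.8 and 12.7 CPM in KO 1 and KO 2 and 0.144, 0.169, 0.0386 and 0.0355 CPM in WT 1 to WT 4. Fabp4, the fatty acid binding protein of fat cells and macrophages, had 5.82 and 4.83 CPM in KO and 0.072, 0.127, 0.116 and 0.106 CPM in WT. Levels of both genes in KO 1 and KO 2 were close. The other members were Prkaa2, a catalytic subunit of AMP-activated kinase, Ggt1, a gamma-glutamyltransferase, Pde6a, a phosphodiesterase subunit of rod photoreceptors, the acyltransferase gene Acnat1 and the serine protease gene Prss32. Acnat1 and Prss32 had no count in WT, with ratios of at least 192 and at least 248.

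Membrane, transport and trafficking genes numbered 7 and had the lowest sum of the role groups in KO, at 72 and 37.6 CPM in sum in KO 1 and KO 2 and 0.532 to 0.888 CPM in WT. Tspan15, a tetraspanin that binds and directs the protease ADAM10, had 15 and 8.04 CPM in KO 1 and KO 2 and no count in any of the 4 WT libraries, a ratio of at least 484. Xkr6, of the XK-related family, likewise had no WT count and stood at 6.74 and 3.88 CPM in KO, a ratio of at least 221. Parm1, a mucin-like membrane protein gene, had 34 and 3.14 CPM in KO and 0.072, 0.0422, 0 and 0 CPM in WT.

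Sh3bp4, an endocytic adaptor, had the smallest pooled ratio of all 51 members, 15.2 (10.7 to 22). Its level was 4.29 and 6.22 CPM in KO 1 and KO 2 and 0.408, 0.38, 0.425 and 0.106 CPM in WT 1 to WT 4. The group also held Slc17a8, a vesicular glutamate transporter of neurons, Tmem45a, a transmembrane protein gene, and Exoc3l4, a relative of an exocyst subunit.

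Little is described of the last 7 members. Gm266 was the second of all members by the lower of its KO values per length, at 39.8 RPKM in KO 1 and 34.7 RPKM in KO 2. It had 48.3 and 42.2 CPM in KO and 0.048, 0.0422, 0.0386 and 0 CPM in WT, a ratio of 1368 (533 to 5029). Entrez gene 76924, with a deposited length of 485 bases, had 8.07 and 4.83 CPM in KO and 0.216, 0.295, 0.27 and 0.177 CPM in WT. Gm10499 had 13.5 and 7.09 CPM in KO and 0.096, 0.0843, 0.0772 and 0.0709 CPM in WT. The others, Gm973, Gramd3, Iqch and Sh3bgrl2, had 4.02 to 31.2 CPM in the KO libraries.

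Drd5, the gene of a dopamine receptor of the class that stimulates adenylyl cyclase, is named as a marker of the set but falls outside it. It had 61.4 CPM in KO 1 and 2.63 CPM in KO 2, under the limit of 3, and no count in any WT library, a ratio of at least 1480. Of the markers, Pdlim4 and Tspan15 therefore qualify and Drd5 does not. Just inside the WT limit lay Dsp, Tirap and Nav2 with highest WT values of 0.461, 0.456 and 0.426 CPM. Just outside it lay Slfn1, Apobec2 and Upk1b with 0.502, 0.532 and 0.552 CPM. Nearest inside the KO limit were Exoc3l4, Tmem45a and Parm1, whose lower KO values were 3.06, 3.14 and 3.14 CPM, and nearest outside were Rnf39, Lta and Plpp1 with 2.96, 2.93 and 2.85 CPM.

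The number of members depended on both KO libraries. By the same limits and the same removal of symbols, 87 genes qualified without KO 2 and 117 without KO 1, against 51 with both. Before removal by symbol, 40 genes under the WT limit passed the KO limit in KO 1 only, 7 of them without a count in KO 2, and 75 passed in KO 2 only, 38 of them without a count in KO 1.

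The KO libraries differed in the members without a common direction. Of the 51 members, 27 were higher in KO 1 and 24 in KO 2. The median log2 ratio of KO 1 to KO 2 was 0.20, against 0.04 over 8849 other genes. Those genes had counts in both KO libraries and a mean KO level within the range of the members, 4.05 to 173 CPM. More than 3-fold apart were 14 members (27.5%), against 531 of the 8849 other genes (6.00%). The other genes were not matched to the members in level within this range, and the part of level in this difference was not tested. Across the 51 genes, log2 CPM in KO 1 and KO 2 had a Pearson r of 0.41 and a Spearman rank correlation of 0.268. The genes share the same 2 libraries and a lower limit in both, so these values only describe the spread.

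Of the members more than 3-fold apart, 7 were higher in KO 1. Amotl1 differed most, with 106 CPM in KO 1 and 4.68 CPM in KO 2, a ratio of 22.7 (95% exact interval 17.7 to 29.6, counting error only). Parm1 was 10.8-fold higher, Thsd4 7.53-fold, Lmcd1 6.06-fold, Myo1e 5.67-fold, Nectin1 5.34-fold and Tirap 3.35-fold. The group of 14 adhesion and cytoskeleton genes supplied 4 of these 7, namely Amotl1, Thsd4, Myo1e and Nectin1.

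The other 7 were higher in KO 2. Samhd1 was 6.96-fold higher in KO 2 than in KO 1 (6.17 to 7.88), Art2b 6.62-fold, Tead1 5.46-fold, Rgma 5.17-fold, Gramd3 4.93-fold, Lgals3 4.37-fold and Foxb1 3.73-fold. Of the 18 B-cell markers, 14 were also higher in KO 2 than in KO 1 and 3 were lower, among them Blk with 268 CPM in KO 1 and 73.9 CPM in KO 2 and Spib with 81.9 CPM in KO 1 and 52.3 CPM in KO 2. All 5 double positive markers were higher in KO 2. The part of these markers in the 7 differences was not tested. The mice also differ in sex, KO 1 being male and KO 2 female, and with 1 mouse of each sex the animal and the sex cannot be told apart.

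**Figure D2:**
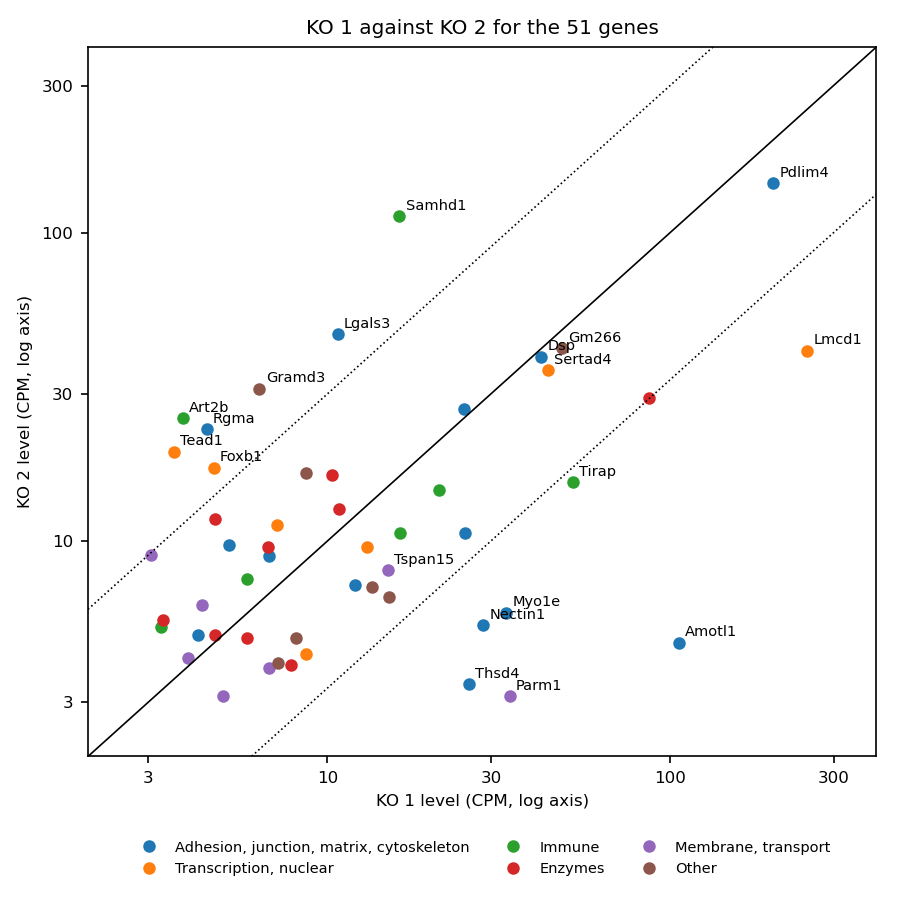
Level of each of the 51 members in KO 1 (horizontal, CPM, log axis) and KO 2 (vertical, CPM, log axis), coloured by role. The solid line is equality and the dotted lines mark 3-fold differences; 7 members lie beyond the line on the KO 1 side and 7 on the KO 2 side, with Pdlim4, Gm266, Dsp and Sertad4 near equality at high levels.

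Some members lay next to each other in the genome. Positions are those of RefSeq genes on GRCm38.p6, the build that the submitters' notes call mm10. Naip5 and Naip6 were 30.2 kb apart, Pdlim4 and P4ha2 31.9 kb, Gm10499 and H2-T3 39.4 kb, and Exoc3l4 and Gm266 52.9 kb. Chromosome 9 held the most members, 9 of its 1352 genes, among them Foxb1 and Myo1e at 446 kb from each other.

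To look beyond the members, the gene-wise test of KO against WT was read for genes next to them, which the selection did not use. The test was edgeR's quasi-likelihood F-test with sex as a covariate and Benjamini-Hochberg adjustment over 13294 genes. At an adjusted p under 0.05 it called 4076 genes, 30.7% of those tested, with 1878 higher in KO (14.1%) and 2198 lower (16.5%). Of the 72 genes that were the nearest tested neighbour of a member on either side within 200 kb, without overlapping it, 22 were higher in KO (30.6%), 6 were lower (8.33%) and 44 were not called. The median log2 fold change was 0.27 over the neighbours and -0.04 over all genes tested. All 6 libraries enter 1 estimate of spread, taken after sex and genotype. Because KO 1 and KO 2 differ in sex, their gap counts only beyond the gap of WT 4 to the female WT libraries. Leaving out single WT libraries moved the count of called neighbours to 13 without WT 1, 14 without WT 2, 16 without WT 3 and 50 without WT 4. The count over all genes moved to 1665, 1714, 1743 and 8279 in the same order. With the sex term kept, the fit without WT 4 takes its spread from WT 1, WT 2 and WT 3 alone, and no spread within KO enters. Fits without KO 1 or KO 2 leave a single KO library, so no conclusion is drawn from their counts. With weights per genotype in limma-voom, which lets KO and WT differ in spread, 14 neighbours were called higher and 1 lower, and over all genes 987 were higher and 513 lower.

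On chromosome 11, Slc22a4 lies beyond Pdlim4 and P4ha2. Slc22a4, a transporter of ergothioneine, had 16.8 and 0.951 CPM in KO 1 and KO 2 and 0, 0.0422, 0.0386 and 0.0355 CPM in WT 1 to WT 4. Its level in KO 1 was far above its level in KO 2, but both were above every WT value. With 3 WT counts the pooled ratio was 411 (139 to 2001), and edgeR's quasi-likelihood test gave an adjusted p of 0.00473. Farther out, Slc22a5, a carnitine transporter gene, had 29.4 and 23.4 CPM in KO and 30.3, 31.1, 30.7 and 32.9 CPM in WT and was not called (edgeR adjusted p = 0.0837). On the other side of P4ha2, the cytokine genes Csf2 and Il3 had no count in KO and 2 counts or none in WT.

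Pdlim4 and P4ha2 are read away from each other, Pdlim4 on the minus strand and P4ha2 on the plus strand. Both, with Tspan15 and H2-T3, are shown here by the bases just upstream of their outermost annotated start, from the RefSeq promoter table on GRCm38.p6, chosen because Pdlim4 and P4ha2 are adjacent, Tspan15 had no WT count and H2-T3 holds the TCF/LEF core. The letters CTTTGA on either strand, the core of the TCF/LEF motif, are in capitals where they occur.
Pdlim4, chr11:54069033-54069267, minus strand: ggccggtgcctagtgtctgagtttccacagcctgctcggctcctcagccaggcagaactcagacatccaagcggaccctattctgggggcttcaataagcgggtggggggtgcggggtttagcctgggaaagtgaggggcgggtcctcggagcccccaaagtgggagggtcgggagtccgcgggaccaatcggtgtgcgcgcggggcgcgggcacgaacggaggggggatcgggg
P4ha2, chr11:54100674-54100923, plus strand: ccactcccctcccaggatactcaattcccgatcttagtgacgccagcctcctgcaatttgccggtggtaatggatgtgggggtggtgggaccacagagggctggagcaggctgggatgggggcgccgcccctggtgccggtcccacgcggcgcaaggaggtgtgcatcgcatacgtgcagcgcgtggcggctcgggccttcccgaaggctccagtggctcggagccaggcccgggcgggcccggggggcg
Tspan15, chr10:62231277-62231468, minus strand: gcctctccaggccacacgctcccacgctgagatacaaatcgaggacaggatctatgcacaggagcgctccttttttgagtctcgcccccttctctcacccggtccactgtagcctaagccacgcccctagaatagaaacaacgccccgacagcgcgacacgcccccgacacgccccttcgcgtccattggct
H2-T3, chr17:36190152-36190401, minus strand: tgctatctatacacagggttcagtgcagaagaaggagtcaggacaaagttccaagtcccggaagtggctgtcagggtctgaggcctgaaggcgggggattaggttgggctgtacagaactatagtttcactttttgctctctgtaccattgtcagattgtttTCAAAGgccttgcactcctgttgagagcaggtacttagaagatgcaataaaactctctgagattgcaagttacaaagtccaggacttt

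Of these 4 stretches, H2-T3 holds 1 match to the TCF/LEF core and the others none. Promoter windows of 300 bases, 250 before and 50 after the start, were in the table for 40 of the 51 members and for 16783 protein-coding genes. CTTTGA, read on both strands, occurred in 4 of the 40 member windows (10%), those of Ggt1, H2-T3, Jaml and Thsd4, and in 14.8% of all windows. The RUNX core TGTGGT occurred in 8 (20%) against 14.7%, the E-box CAGCTG in 12 (30%) against 15.3% and the TEAD core CATTCC in 3 (7.5%) against 13.3%, all on both strands. Matches of different motifs can share bases at their ends, and a match is a description of letters only. The stretches also differ in CG content, as H2-T3 shows 2 CG dinucleotides in 250 bases and P4ha2 21. Over the 40 windows the median was 16 CG dinucleotides per 300 bases (quartiles 5 and 29), against 14 (4 and 25) for all protein-coding genes and 21 (13 and 29) for those tested.

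On chromosome 12, Tnfaip2, an exocyst-related gene, lies between Exoc3l4 and Gm266. Exoc3l4 had 3.06 and 9 CPM in KO 1 and KO 2 and 0, 0.127, 0.193 and 0.0709 CPM in WT 1 to WT 4. Tnfaip2 had 3.22 and 2.71 CPM in KO and 0.048, 0, 0 and 0.0355 CPM in WT, a pooled ratio of 120 (39.8 to 590) on 3 WT counts, and rose in KO by edgeR's test with an adjusted p of 0.00312. Its KO 2 value lay under the limit of 3 CPM, and its symbol belongs to a family that the selection leaves out. The flanking genes Lbhd2 (edgeR adjusted p = 0.0878) and Eif5 (edgeR adjusted p = 0.0759) were not called. Eif5, a translation initiation factor gene, is abundant, with 410 and 449 CPM in KO and 498 to 516 CPM in WT.

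On chromosome 13, Naip5 had 21.2 and 14.6 CPM in KO 1 and KO 2 and 0.096, 0.127, 0.0772 and 0.213 CPM in WT 1 to WT 4. Naip6 had 5.82 and 7.53 CPM in KO and 0.048, 0, 0.0772 and 0.0355 CPM in WT. The neighbouring paralog Naip2 had 0.766 and 8.12 CPM in KO and 0.048, 0, 0.0386 and 0.0355 CPM in WT, and rose by 7.16 ± 0.76 on the log2 scale (SE; edgeR adjusted p = 0.00297). Naip1 on the other side had 1 count in KO and 2 in WT. Smn1, the nearest abundant gene, was not called (edgeR adjusted p = 0.381). These paralogs are alike enough in sequence for reads to be shared or lost between them, so the split of counts among them is uncertain.

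On chromosome 17, Gm10499 and H2-T3 lie in a cluster of class I genes of the major histocompatibility complex. Gm8909, whose annotated span overlaps Gm10499, had 11.8 and 17.3 CPM in KO 1 and KO 2 and 0.312, 0.422, 0.502 and 0.567 CPM in WT 1 to WT 4; it was named after its values were seen. It rose by 5.05 ± 0.32 on the log2 scale (SE; edgeR adjusted p = 0.000686). Class I genes of the same cluster that wild-type cells do transcribe were also higher in KO. H2-T10 had 59.2 and 35.4 CPM in KO and 10.7 to 15.8 CPM in WT (edgeR adjusted p = 0.00174), and H2-T22 had 91.2 and 110 CPM in KO and 46.4 to 52 CPM in WT (edgeR adjusted p = 0.00236). H2-T23, at 121 and 192 CPM in KO and 69.8 to 90.9 CPM in WT, was called at an edgeR adjusted p of 0.02, a call lost without WT 1, WT 2 or WT 3 (edgeR adjusted p up to 0.0771). The H2-T genes and Slc22a5 were named after their values were seen. Class I genes share long stretches of sequence, so counts among them are uncertain too.

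**Figure D3:**
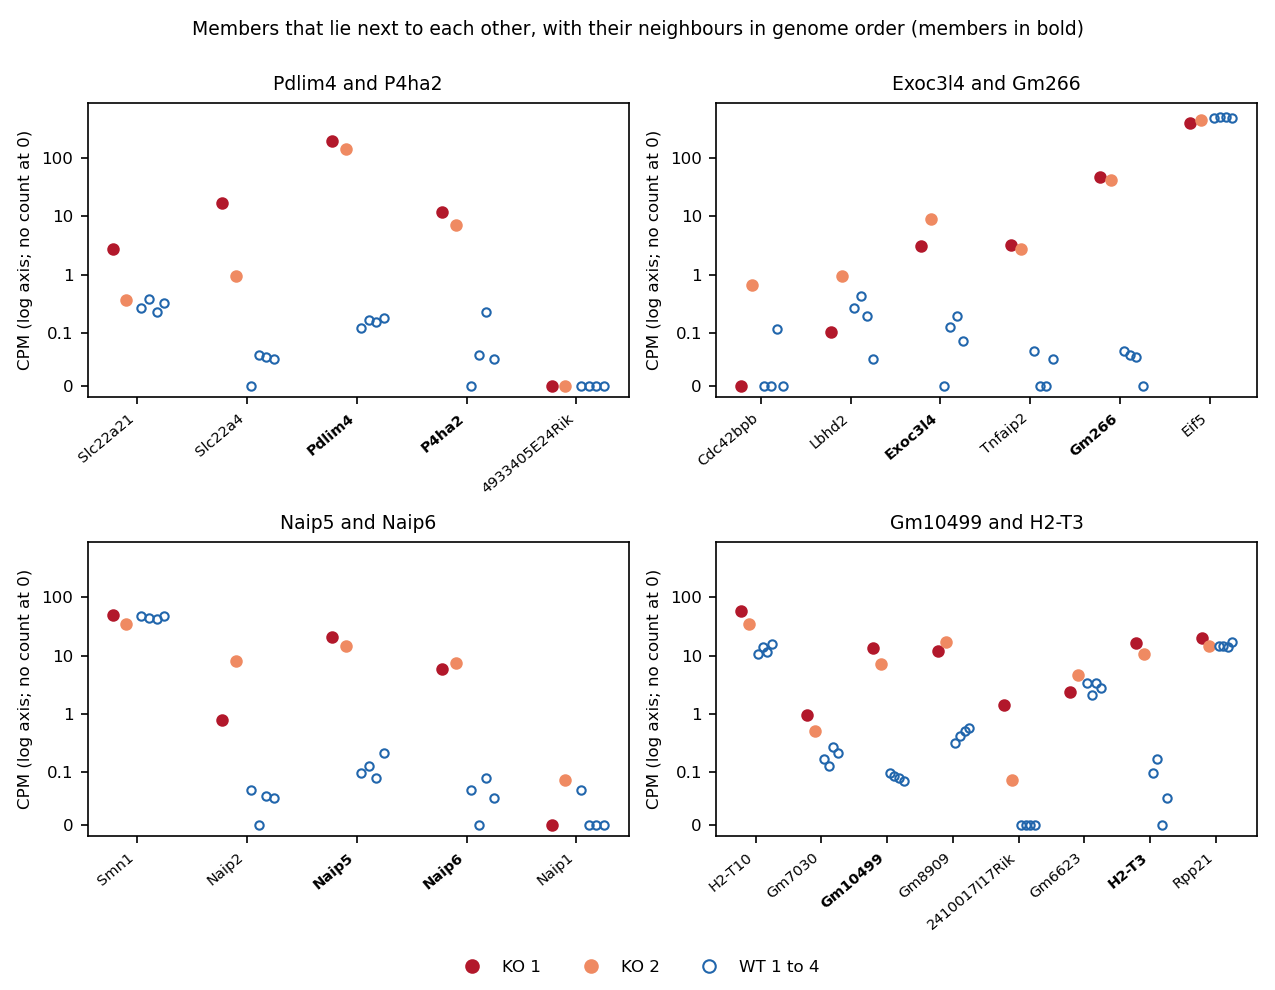
CPM (log axis, libraries without a count at 0) of members that lie side by side, in bold, and of the genes around them in genome order, for KO 1 and KO 2 (filled) and WT 1 to WT 4 (open). Slc22a4, Tnfaip2, Naip2 and Gm8909 were above their WT levels in both KO libraries, with Slc22a4 at 0.951 CPM in KO 2 and Naip2 at 0.766 CPM in KO 1, while Eif5 and Smn1 stand at like levels in all 6 libraries and Naip1 stays near 0.

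Among neighbours outside these clusters, most of those named were transcribed in wild-type cells and had smaller fold changes than the member beside them. Slc26a2, a sulfate transporter gene beside Pde6a, had 37.2 and 48.6 CPM in KO 1 and KO 2 and 25.9, 26.5, 25.8 and 21.5 CPM in WT 1 to WT 4, and rose by 0.89 ± 0.08 on the log2 scale (SE; edgeR adjusted p = 0.00179). Rhoq and Prkce flank Epas1; Rhoq, a small GTPase, had 13.2 and 14 CPM in KO and 2.98 to 4.44 CPM in WT, and Prkce, a protein kinase C, had 6.84 and 15.4 CPM in KO and 2.66 to 3.75 CPM in WT. Both were called higher (Rhoq, edgeR adjusted p = 0.00191; Prkce, edgeR adjusted p = 0.00468). Ccnb2, a mitotic cyclin beside Myo1e, had 185 and 147 CPM in KO and 49.5 to 67 CPM in WT (edgeR adjusted p = 0.00341).

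Plpp3, a lipid phosphate phosphatase beside Prkaa2, had 15.4 and 7.02 CPM in KO 1 and KO 2 and 0.624, 0.422, 0.27 and 0.177 CPM in WT 1 to WT 4, which is low but above the WT limit in WT 1. It rose by 4.81 ± 0.62 on the log2 scale (SE; edgeR adjusted p = 0.00512). Syt14, a synaptotagmin beside Sertad4, had 6.33 and 4.31 CPM in KO and 1.13 to 1.31 CPM in WT (edgeR adjusted p = 0.0057). Myo9a, an unconventional myosin beside Thsd4, had 47.4 and 48.1 CPM in KO and 30.9 to 34.7 CPM in WT (edgeR adjusted p = 0.00644). The call of Myo9a was lost with weights per genotype (limma adjusted p = 0.139).

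Neighbours also moved against the member beside them. Oxtr, the oxytocin receptor gene 143 kb from Lmcd1, had no count in KO and 1.15, 1.14, 1.16 and 1.99 CPM in WT 1 to WT 4, and was at least 14.9-fold lower in KO (edgeR adjusted p = 0.00534). Prss30, a serine protease gene 112 kb from Prss32, had 0.255 and 0.585 CPM in KO and 7.49, 8.52, 6.49 and 11.3 CPM in WT, and fell by 4.40 ± 0.47 on the log2 scale (SE; edgeR adjusted p = 0.00311). Both calls were lost with weights per genotype (Oxtr, limma adjusted p = 0.171; Prss30, limma adjusted p = 0.122). The transcript 5031434C07Rik, which overlaps Lmcd1 and was named after its values were seen, had 1.79 and 1.9 CPM in KO and no count in WT.

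Exons of 15 members overlap exons of another gene in the GENCODE annotation, 13 of them on the opposite strand. The library kit does not mark the strand, so reads there cannot be assigned by strand, and the strand setting of the counting is not stated in the labels or notes. Abundant partners were present for Pltp (Ctsa, 153 and 131 CPM in KO and 139 to 160 CPM in WT) and for Tirap (Srpr, 133 and 106 CPM in KO and 106 to 111 CPM in WT). The part of reads from the partners in the counts of these members was not tested.

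Relatives of the members by family or pathway, read from lists drawn up for this purpose, moved in both directions in most families. Over all 18 context lists, which include marker lists of other cells, 157 genes that are not members were tested, and 44 were higher in KO and 33 lower (49% called, against 30.7% of all genes tested). The lists were drawn up with earlier results of these data known. They hold Tcf7, the gene knocked out, and Drd5, a named marker of this contrast, so the share called is a description only. Without single WT libraries the number called was 47 without WT 1, 47 without WT 2, 50 without WT 3 and 117 without WT 4. In the fit without WT 4 no spread within KO enters. Of 4 tested relatives of Pdlim4 in the PDZ and LIM domain family, 3 were higher and none lower. Pdlim1 had 142 and 111 CPM in KO and 69.7 to 76.7 CPM in WT (edgeR adjusted p = 0.0075), and Pdlim5 had 44.3 and 82.3 CPM in KO and 26.1 to 39.2 CPM in WT (edgeR adjusted p = 0.00277). Pdlim2 was the weakest of these calls (edgeR adjusted p = 0.0302) and was lost without WT 1, WT 2 or WT 3, at adjusted p up to 0.101.

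Of 17 tested tetraspanins other than Tspan15, 4 were higher, 4 lower and 9 not called. Cd81, a tetraspanin found on B and T cells, had 63.7 and 58.1 CPM in KO 1 and KO 2 and 6.53, 6.58, 6.29 and 4.65 CPM in WT 1 to WT 4 (log2 difference 3.44 ± 0.15, SE; edgeR adjusted p = 0.000297). Tspan32 had 11.2 and 27.5 CPM in KO and 0.36, 0.801, 0.425 and 0.39 CPM in WT (edgeR adjusted p = 0.000801), and Cd53 had 188 and 329 CPM in KO and 57.7 to 71.7 CPM in WT (edgeR adjusted p = 0.00325). Cd81 and Cd53 were well above the 0.5 CPM limit in each WT library, and Tspan32 was under it in 3 of the 4. Of 7 tested membrane proteases of the ADAM family, the family of the partner of Tspan15, 2 were higher, 1 lower and 4 not called. The partner itself, Adam10, had 128 and 197 CPM in KO and 188 to 197 CPM in WT and was not called (edgeR adjusted p = 0.432). Adam19 had 559 and 341 CPM in KO and 0.552, 0.506, 0.695 and 0.532 CPM in WT (edgeR adjusted p = 3.12e-05). Adam19 missed membership only by its WT level, which lay just over 0.5 CPM in each library.

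Forkhead factors other than Foxb1 were mostly not called, with 2 of 15 higher, 1 lower and 12 not called. Foxo1, a factor of lymphocyte homing and survival, had 88.2 and 186 CPM in KO and 41.1 to 45.3 CPM in WT (edgeR adjusted p = 0.00409). Among 12 tested genes of the RGM and bone morphogenetic protein pathway, to which Rgma belongs, 2 were higher, 4 lower and 6 not called. The ligand gene Bmp7 had 66.2 and 53.5 CPM in KO and 15.4 to 18.8 CPM in WT (edgeR adjusted p = 0.00116). The accessory receptor gene Eng had 8.27 and 10.2 CPM in KO and 39.9, 36.3, 35.9 and 36.5 CPM in WT (edgeR adjusted p = 0.000679). Of 5 tested relatives of Xkr6, 1 was lower and 4 not called; the lower one, Xkr7, had no count in KO and 0.816 to 0.927 CPM in WT, and its call (edgeR adjusted p = 0.01) was lost without WT 1, WT 2 or WT 3, at adjusted p up to 0.055.

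Partners of desmoplakin moved in both directions. Of 8 tested genes of desmosomes and adherens junctions other than Dsp, 2 were higher, 3 lower and 3 not called. Cdh1, E-cadherin, had 35.2 and 31.2 CPM in KO and 79.5 to 92.8 CPM in WT (edgeR adjusted p = 0.000511). Jup, plakoglobin, which binds desmoplakin, had 0.204 and 0.293 CPM in KO 1 and KO 2 and 7.08, 6.54, 7.65 and 7.34 CPM in WT 1 to WT 4 (edgeR adjusted p = 0.000647). This call was lost with weights per genotype (limma adjusted p = 0.131). Dsg2, a desmosomal cadherin, had 0.817 and 34.5 CPM in KO and 3 counts in WT, all in WT 1, a ratio of 584 (199 to 2843; edgeR adjusted p = 0.000705). Dsp was thus near 40 CPM in both KO libraries, Dsg2 was high only in KO 2, and Jup was near 0 in both.

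Of 13 tested TCF/LEF factors and Wnt targets, 5 were higher, 2 lower and 6 not called. Lef1, the closest relative of Tcf7 in thymocytes, had 858 and 884 CPM in KO and 274, 281, 293 and 213 CPM in WT (log2 difference 1.82 ± 0.09, SE; edgeR adjusted p = 0.000402). Tnfrsf19, a Wnt target in other tissues, had 30.3 and 23 CPM in KO and 0.497 to 1.27 CPM in WT (edgeR adjusted p = 0.00102). Of 27 genes of the Polycomb repressive complexes, which keep developmental genes silent, 4 were higher, 8 lower and 15 not called. Jarid2, an accessory subunit, had 119 and 135 CPM in KO and 77.1 to 83 CPM in WT (edgeR adjusted p = 0.00175). Pcgf5 had 30.4 and 31 CPM in KO and 52.9 to 58.4 CPM in WT (edgeR adjusted p = 0.00215), and Phc3 had 86.6 and 107 CPM in KO and 175 to 188 CPM in WT (edgeR adjusted p = 0.00279). The call of Pcgf5 was lost with weights per genotype (limma adjusted p = 0.0883).

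Markers of DN3 cells and of other cells were read for the same libraries. Of 9 tested DN3 markers, 4 were lower, 1 was higher and 4 were not called. The lower ones were Il2ra (edgeR adjusted p = 0.00253), Ptcra (edgeR adjusted p = 0.00308), Notch3 (edgeR adjusted p = 0.00165) and Cd3g (edgeR adjusted p = 0.00515). Dtx1 was the higher one (edgeR adjusted p = 0.000162). Of 12 tested B-cell markers, 7 were higher and none lower. Of 5 tested double positive markers 4 were higher, led by Cd8a with 66.8 and 840 CPM in KO and 0.709 to 3.75 CPM in WT. Cd4 was the marker not called (edgeR adjusted p = 0.415). It had 0 and 12.6 CPM in KO 1 and KO 2 and 0.745 to 2.63 CPM in WT. Myeloid and dendritic markers summed to 62.8 and 65.1 CPM in KO and 74.4 to 80 CPM in WT. Lyz2 was lower, at 0.153 and 1.17 CPM in KO and 16.7 to 18.6 CPM in WT (edgeR adjusted p = 0.00517), and Itgam was higher, at 4.8 and 6.73 CPM in KO and 0.497 to 0.759 CPM in WT (edgeR adjusted p = 0.00121). Without Lyz2 the myeloid sum was 62.6 and 63.9 CPM in KO and 57.7 to 62.4 CPM in WT. Most of this sum was 1 gene, Cst3, at 57.3 and 54.3 CPM in KO and 56.9 to 61.5 CPM in WT, which was not called (edgeR adjusted p = 0.519). Csf1r stood at 0.153 and 0.0731 CPM in KO and at 0 to 0.284 CPM in WT. Thymic epithelial and stromal markers summed to 190 and 184 CPM in KO and 260 to 277 CPM in WT. The lower sum was that of Epcam, at 45.9 and 51.9 CPM in KO and 148 to 159 CPM in WT (edgeR adjusted p = 0.000465), and without it the list summed to 144 and 132 CPM in KO and 111 to 118 CPM in WT. Pecam1 was called higher, at 138 and 132 CPM in KO and 110 to 116 CPM in WT (edgeR adjusted p = 0.0257), a call lost without WT 1, WT 2 or WT 3 (edgeR adjusted p up to 0.112). Col1a1 had 5.92 and 0.439 CPM in KO and 0.464 to 0.887 CPM in WT and was not called (edgeR adjusted p = 0.316). The epithelial factor Foxn1 had no count in any library, KO or WT. The part of cells of these kinds in the levels of members such as Cldn2, Dsp and Lamb1 was not tested. NK and innate lymphoid markers summed to 335 and 333 CPM in KO and 255 to 269 CPM in WT, with Ncr1 at 0 in both KO libraries. Erythroid and platelet markers summed to 5.77 and 26.4 CPM in KO and 3.97 to 12.9 CPM in WT. Gamma-delta markers summed to 1756 and 1650 CPM in KO and 1506 to 1575 CPM in WT, but single genes moved apart. Of 5 tested, 2 were higher, 1 lower and 2 not called. Cd163l1 had 628 and 558 CPM in KO 1 and KO 2 and 35.2 to 50.4 CPM in WT. Trgc1, the lower one, had 226 and 197 CPM in KO and 412 to 428 CPM in WT. Trdc, not called, had 22 CPM in KO 1, 292 CPM in KO 2 and 300 to 344 CPM in WT.

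**Figure D4:**
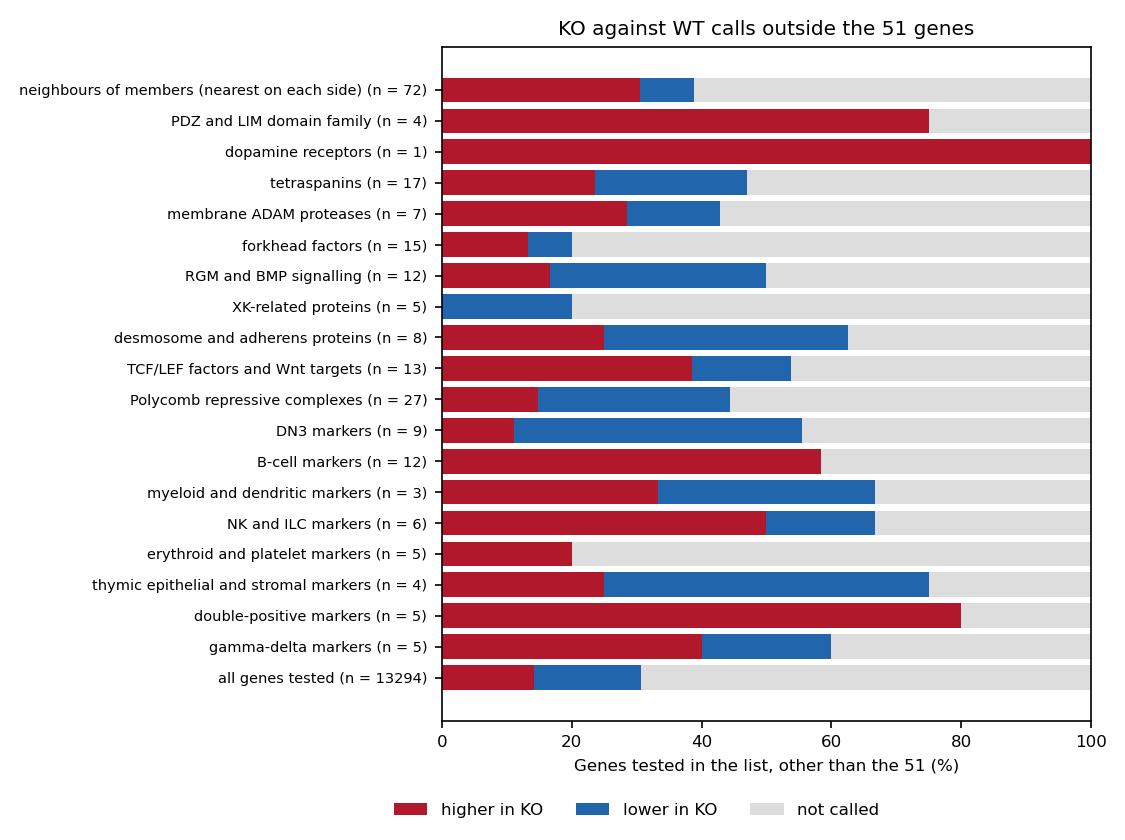
Share of tested genes called higher in KO, lower in KO or not called (edgeR, adjusted p under 0.05) among the neighbours of the members, each context list and all genes tested, with the members left out of the lists. The neighbours show 30.6% higher and 8.33% lower, against 14.1% and 16.5% of all genes tested, and the lists of relatives hold genes of both directions except the PDZ and LIM domain family, the dopamine receptors and the XK-related proteins. The only dopamine receptor tested is Drd5, a named marker of this contrast, so that bar was fixed in advance.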

How the data were processed

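The authors deposited raw read counts per Entrez gene for 6 libraries; per the submitters' processing notes, featureCounts and the mm10 build were used, while aligner, versions and strandedness are not stated there or in the labels. Per the labels' protocols, RNA was amplified with the SMART-Seq v4 kit and read as paired ends. Symbols and positions came from RefSeq tables of GRCm38.p6, which matched 25275 of the 26332 IDs. CPM used column totals. The test across genes was edgeR 4.0.16 (R 4.3.3; TMM, filterByExpr by genotype with a count minimum of 10, robust quasi-likelihood F-test, sex plus genotype), with DESeq2 1.42.0 and limma 3.58.1 as alternatives; it was tested on simulated data. Intervals used scipy 1.17.1. Each library came from its own mouse, and p-values measure the spread between these 6 mice. The members, role groups and lists were chosen with earlier results of these data known. Named were all members, with values in every library for those highest per length, up to 4 per role and those at the limits, and, of other genes, up to 12 called neighbours and up to 4 per list by smallest p.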

Additional observations from a re-analysis of the deposited data

Results flagged for a closer look

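In the group of 4 WT libraries, 112 genes, the members and genes read beside them, were checked for a library far from the other 3 (the gap to the nearest library, as a share of the range, over Dixon's 95% critical value). It was met by 14 genes, of which 4 are members. Chance flags about 1 in 20 groups of normally distributed values. This rate need not hold for genes with few WT counts, such as Slc22a4, Trnp1 and Dsg2, so the 14 cannot be set against it. Among the members, Sh3bp4 was low in WT 4 at 0.106 CPM, Samhd1 was low in WT 4 at 0.319 CPM, Nav2 was low in WT 3 at 0.116 CPM, and Trnp1 had its only WT counts, 4, in WT 1 at 0.096 CPM. Among neighbours, Slc26a2 was low in WT 4 at 21.5 CPM, Slc22a4 was lowest in WT 1 at 0 CPM, Oxtr was high in WT 4 at 1.99 CPM, and H2-T23 was high in WT 4 at 90.9 CPM. Among the other genes, Cd81 was low in WT 4 at 4.65 CPM, Tcf7 was low in WT 4 at 2113 CPM, Tspan32 was high in WT 2 at 0.801 CPM, Eng was high in WT 1 at 39.9 CPM, Csf1r was high in WT 4 at 0.284 CPM, and Dsg2 had counts in WT 1 alone, at 0.072 CPM. WT 4, the male WT mouse, accounts for 8 of the 14.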

How the results depend on the processing

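The number of members was 33 with a WT limit of 0.25 CPM, 88 with a WT limit of 1 CPM, 6 when no WT count was allowed and 25 with a KO limit of 6 CPM, against 51; leaving out single libraries gave 52 to 117. TMM scaling gave 52. The number of genes called was 4076, of neighbours called 28 and of context genes called 77. With weights per genotype the first 2 were 1500 and 15. Leaving out single libraries gave 1665 to 9473 genes, 13 to 56 neighbours and 47 to 128 context genes. KO 1 and KO 2 share numbers with WT 1 and WT 2, but the deviations of same-numbered libraries had r = -0.0492 over 13294 genes, so the numbers are taken as names only; with the replicate block the counts were 717 genes, 5 neighbours and 25 context genes. For genes, neighbours and context genes, the upper ends of the ranges without single libraries came from the fit without KO 2. That fit leaves a single KO library, so no conclusion is drawn from these upper ends. The causes of the moves in the counts were not tested. With 2 KO mice the spread within KO rests on 1 pair, and the sex term takes up part of it. A gene with few counts in WT cannot be told from one that is silent there.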
